A study of Mus musculus with 2 samples.

Results

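RNA levels of Hippo pathway genes and targets were described in early ureters exposed to an activator of WNT signaling. Followed were 10 genes: the coactivators Yap1 and Wwtr1, the transcription factors Tead1 and Tead2, the target genes Ctgf, Cyr61 and Ankrd1, and the regulators Amotl2, Ajuba and Lats2. They were found by their names on the array (Ctgf and Cyr61 are now also called Ccn2 and Ccn1) and were among 29875 genes represented there. They had 14 of 39429 biological probes, and all 10 genes were detected and tested.

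Ureters of wildtype NMRI mouse embryos had been dissected at E12.5, freed of kidney and bladder, and grown as explants on membranes for 18 h. The medium, which lacked serum, held either 10 µM BIO or, in the control, the solvent DMSO at 2 parts per 1000. BIO inhibits the kinase GSK3 and thereby stabilizes CTNNB1, the transducer of canonical WNT signaling. Total RNA of separate pools of ureters, in which the sex of the embryos was not determined, was hybridized to 2 arrays of 2 colors, each with 1 BIO pool and 1 control pool. BIO RNA was red in replicate 1 and green in replicate 2, and the arrays shared 1 slide and 1 scan. Each gene therefore had 2 control values and 2 BIO values, and n = 2 holds for every mean below.

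The Hippo pathway is a kinase cascade in which STK3 and STK4 activate LATS1 and LATS2, which phosphorylate YAP1 and its paralog WWTR1 (TAZ) and so keep them out of the nucleus. Unphosphorylated YAP1 and WWTR1 enter the nucleus and bind TEAD proteins, which recognize DNA and switch on genes such as Ctgf, Cyr61 and Ankrd1. Some genes whose products restrain YAP1, among them Lats2 and Amotl2, are targets of YAP1 and TEAD proteins too and close a negative feedback loop. Since YAP1 and WWTR1 are controlled chiefly by phosphorylation and location, RNA levels report on the components and the targets but not on the proteins' activity.

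The DNA at which these genes start is shown first, because TEAD proteins read it. Promoter windows of RefSeq (GRCm38.p6, 250 bases before to 50 bases after a start site) were at hand for 8 of the 10 genes. Ctgf and Tead1 had no window and were not searched. The TEAD core letters GGAATG, searched on both strands and thus also as CATTCC, stood in the windows of 7 of these 8 genes, all but Tead2. They stood in 14.7% of all 32851 windows, and 16.6% of the 27025 genes with a window had them in at least 1. The letters CTTTGAT (or ATCAAAG), which TCF and LEF proteins of the WNT pathway recognize, were found for Amotl2 and Wwtr1 and in 3.73% of all windows. The CArG box of serum response factor was found in 0 of the 8 genes and in 1.63% of all windows. Of the genes with a window, 4.29% had the TCF/LEF letters and 1.81% the CArG box in at least 1. No match overlapped another. A match of letters describes the sequence and shows no binding, and these genes were chosen as known partners and targets of TEAD proteins. Of the other genes of the pathway described below, 8 of 18 core Hippo genes and 2 of 10 further targets with a window held the TEAD letters. The 250 bases before the start of 3 targets, 1 that rose and 2 that fell, read as follows, 5′ to 3′ on the strand of the gene, with the TEAD and TCF/LEF letters in capitals.
Ankrd1, chr19:36119845-36120094, strand -: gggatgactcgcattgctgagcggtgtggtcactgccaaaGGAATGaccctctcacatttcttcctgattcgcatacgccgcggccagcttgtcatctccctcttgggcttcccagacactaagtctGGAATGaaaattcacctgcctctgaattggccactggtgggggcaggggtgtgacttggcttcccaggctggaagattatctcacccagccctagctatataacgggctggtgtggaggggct
Cyr61, chr3:145649986-145650235, strand -: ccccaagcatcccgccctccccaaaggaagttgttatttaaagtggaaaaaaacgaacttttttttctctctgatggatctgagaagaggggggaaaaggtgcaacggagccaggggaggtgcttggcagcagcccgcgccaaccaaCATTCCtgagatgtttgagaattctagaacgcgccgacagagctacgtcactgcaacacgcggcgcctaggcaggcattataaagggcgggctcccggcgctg
Amotl2, chr9:102717554-102717803, strand +: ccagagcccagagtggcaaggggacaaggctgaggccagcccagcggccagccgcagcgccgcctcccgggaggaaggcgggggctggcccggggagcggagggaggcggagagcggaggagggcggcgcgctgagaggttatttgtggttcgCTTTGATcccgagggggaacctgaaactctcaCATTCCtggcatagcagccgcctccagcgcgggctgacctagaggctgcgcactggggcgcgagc
Ankrd1 has the TEAD letters in the same orientation at both places, beginning 123 and 210 bases before its start. Cyr61 has them once, in the other orientation, 103 bases before the start. In Amotl2 they begin 65 bases before the start, and the TCF/LEF letters begin 97 bases before it. For the remaining genes that held the TEAD letters, these are shown with the bases beside them.
Lats2, chr14:57746102-57746131, strand -: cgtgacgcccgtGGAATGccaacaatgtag
Ajuba, chr14:54577808-54577837, strand -: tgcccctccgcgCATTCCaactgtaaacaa
Ajuba, chr14:54577830-54577859, strand -: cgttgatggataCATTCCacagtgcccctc
Wwtr1, chr3:57576029-57576058, strand -: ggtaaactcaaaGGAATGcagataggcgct
Yap1, chr9:8004720-8004749, strand -: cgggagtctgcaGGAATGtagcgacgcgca
In Lats2 the letters lie just after the start, from base 5 of the transcript, and the window of its other start site lacked them. In Ajuba they begin 164 and 186 bases before the start, in Wwtr1 136 bases and in Yap1 141 bases before it, and the Wwtr1 distance holds for the nearer of its 2 start sites.

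Of the 10 genes, 4 fell and 1 rose with BIO, and 5 did not pass the test. Ctgf fell most, 3.47-fold, followed by Lats2 with 1.81-fold, Amotl2 with 1.72-fold and Cyr61 with 1.28-fold, while Ankrd1 rose 1.64-fold. The coactivators Yap1 and Wwtr1 and the factors Tead1 and Tead2 did not pass the test. Among all 21574 genes tested with limma at an adjusted p of 0.05, 24.2% were called, 9.27% as risen and 14.9% as fallen. The median log2 ratio of BIO over control was -0.19 for the 10 genes and -0.01 for all genes tested. By the processed signals, 5 of the 10 genes were lower in both BIO pools than in either control pool, 2 were higher in both, and 3 overlapped. Such separation was seen for 56.3% of all genes tested, with BIO higher in 29.9% and lower in 26.4%.

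**Figure D1:**
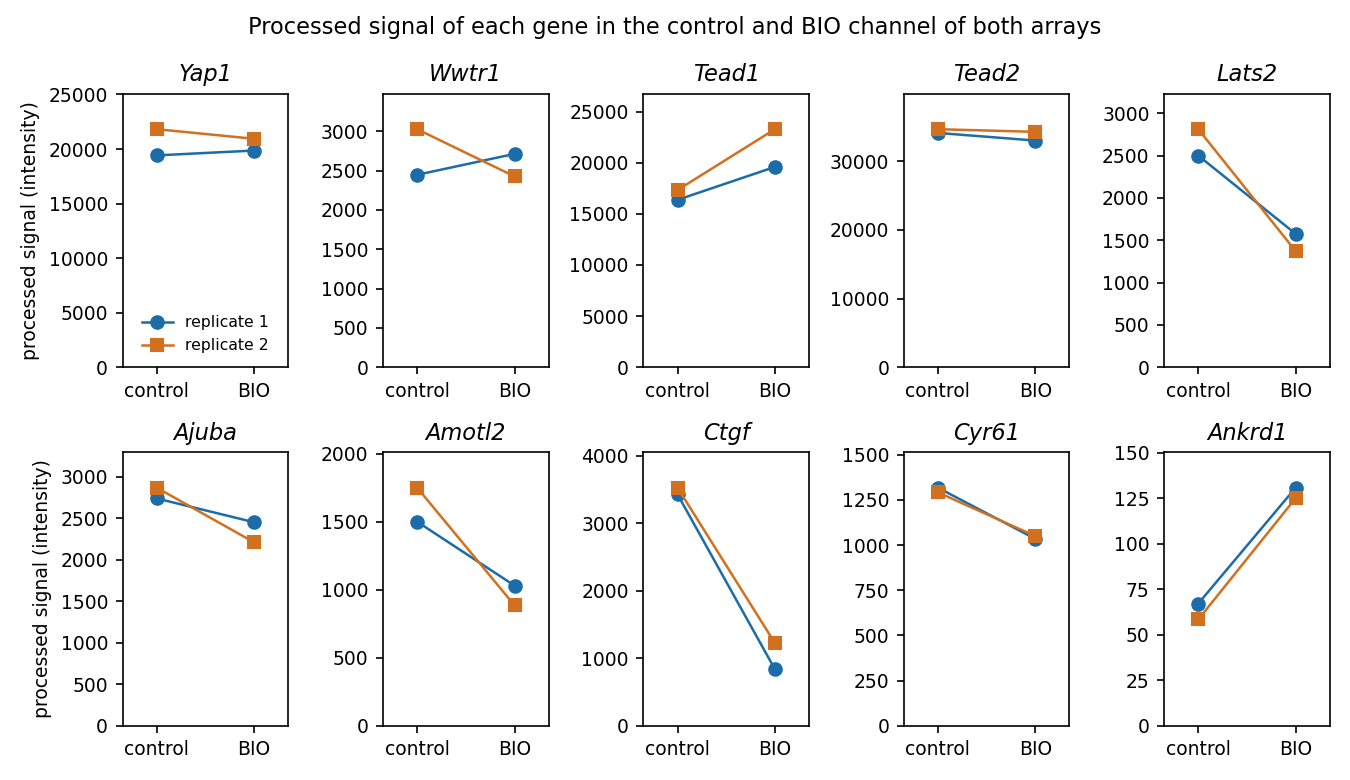
Processed signal (linear intensity, background-subtracted and dye-normalized by the scanner software, averaged over spots) of the brightest probe of each gene in the control and BIO channel, with a line joining the channels of 1 array (circles, replicate 1; squares, replicate 2). Each panel has its own axis from 0, since levels of different probes cannot be compared. Ctgf, Lats2 and Amotl2 have both BIO values well below both control values, and Ankrd1 has both above.

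Levels are given as processed signals, in units of intensity, in the order control and BIO of replicate 1, then control and BIO of replicate 2. Log2 ratios are BIO over control after background correction and loess normalization, and their errors are standard errors of the limma fit. Yap1, which encodes the main coactivator of the pathway, had signals of 19415, 19860, 21817 and 20938. The control and BIO values overlapped, BIO being slightly higher in replicate 1 and slightly lower in replicate 2. The log2 ratio was -0.07 ± 0.108 with a 95% interval from -0.32 to 0.17 and an adjusted p of 0.681. Wwtr1, which encodes the paralog TAZ, gave 2447, 2713, 3027 and 2426. BIO was the higher channel in replicate 1 and the lower one in replicate 2, with log2 ratios of 0.20 and -0.37. The mean of -0.09 ± 0.147 (adjusted p = 0.732) averages arrays that differed by 0.569, against a median difference of 0.164 over all genes tested. The interval for Wwtr1, from -0.42 to 0.25, is the widest of these 4 genes.

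Tead1, which encodes a DNA-binding partner of YAP1, had signals of 16375, 19598, 17333 and 23290 at its brightest probe. Both BIO values lay above both control values. The log2 ratios were 0.17 and 0.42, and the mean of 0.29 ± 0.116 did not pass the test (adjusted p = 0.105, 95% interval 0.03 to 0.56). Tead1 has 2 further probes (mm9, chr7:120042204-120042263 and chr7:120043445-120043504, the brightest one lying at chr7:120049844-120049903). The first of these, much dimmer, gave 104, 178, 123 and 178 and a log2 ratio of 0.48 ± 0.110, with an adjusted p of 0.0166 over all probes. The other, dimmer still at 17.6, 34.5, 23.6 and 26.1, gave 0.25 ± 0.123 (adjusted p = 0.185 over all probes). All 3 probes were thus higher with BIO on both arrays, and their mean, taken as the value of the gene, passed the test with a log2 ratio of 0.34 (adjusted p = 0.041). Tead2, the paralog that is prominent in early embryos, had signals of 34125, 33015, 34670 and 34284. The groups overlapped, and the log2 ratio of -0.01 ± 0.108 had a 95% interval from -0.26 to 0.24. Its second probe gave -0.04 ± 0.111.

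The sign of Yap1 and Tead2 depended on the normalization. With each array centered on its median in place of loess, their log2 ratios were 0.10 and 0.25, and neither passed the test.

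Ctgf encodes a secreted matricellular protein of the CCN family and is widely used as a readout of YAP1 and TEAD activity. Its probe (NM_010217, chr10:24318281-24318340) gave signals of 3430, 837, 3528 and 1225. Both BIO values were far below both control values, and the control values of the 2 pools were close to each other. The log2 ratios were -2.08 and -1.51, and the mean was -1.80 ± 0.147 (95% interval -2.13 to -1.46, adjusted p = 0.000142, limma). Of all genes tested, 124 had a lower log2 ratio. The 4 spots of Ctgf had an SD of 0.0577 on replicate 1 and 0.0841 on replicate 2, while the arrays differed by 0.576. Ctgf was also the only one of the 10 genes to meet the cut-offs that the study used for other arrays, an intensity of at least 100 and a fold change of at least 2 on both arrays. These cut-offs were met by 2.23% of 29864 genes, 0.753% as higher and 1.47% as lower.

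Cyr61, a second CCN family gene and classic target, had signals of 1317, 1034, 1292 and 1050 (NM_010516, chr3:145310187-145310246). The groups did not overlap, and both BIO values were lower by a similar amount. The log2 ratio of -0.36 ± 0.109 was just past the test (adjusted p = 0.0468), and 15.9% of all genes tested had a lower one. It missed the test with the processed signals (adjusted p = 0.108), with median centering (0.17), with an offset of 16 (0.0713) and without the filter on dim probes (0.0501). The other CCN genes Nov, Wisp1 and Wisp2 gave log2 ratios of -0.17 ± 0.112, -0.20 ± 0.138 and 0.15 ± 0.110, and 0 of these 3 passed the test, adjusted or unadjusted.

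Ankrd1, which encodes an ankyrin repeat protein of muscle and other cells and is a further standard target, went the other way. Its probe (NM_013468, chr19:36186809-36186868) gave signals of 67.1, 131, 58.3 and 125. Both BIO values were about equally far above both control values, and all 4 channels were well above background. The processed signals of BIO were 1.95-fold and 2.14-fold those of the control. The log2 ratios after normalization were 0.64 and 0.78, with a mean of 0.71 ± 0.110 (95% interval 0.46 to 0.96, adjusted p = 0.00272). The offset of 50 in the background correction draws ratios of dim probes such as this one toward 0, and with an offset of 16 the log2 ratio was 0.81. Only 2.49% of all genes tested had a higher log2 ratio. The intervals of Ankrd1 and Ctgf, both named as direct targets, lie on opposite sides of 0.

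**Figure D2:**
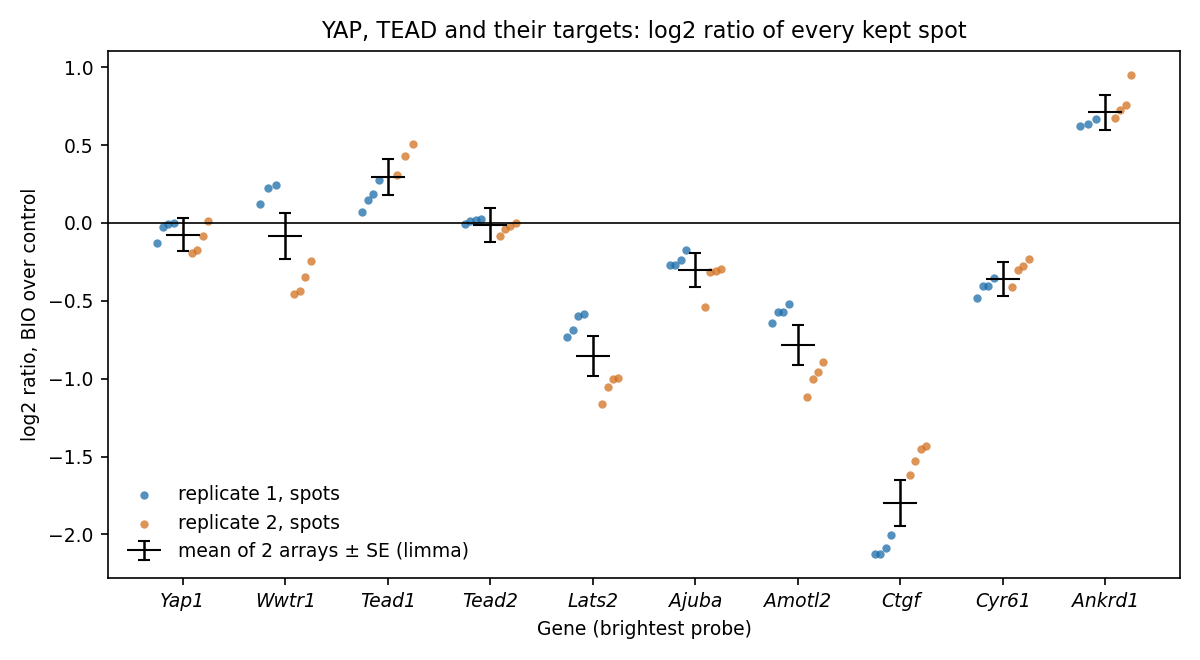
Log2 ratio of BIO over control (y axis) of every spot kept for the brightest probe of each gene, for replicate 1 and replicate 2, with the mean of the 2 arrays and its standard error in black. The spots of Ctgf lie between -2.12 and -1.43, those of Ankrd1 between 0.62 and 0.95, and those of Wwtr1 on opposite sides of 0 in the 2 replicates.

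Lats2 and Amotl2, whose products restrain YAP1 and which are also targets of YAP1 and TEAD proteins, both fell. Lats2, the kinase that phosphorylates YAP1 and WWTR1, had signals of 2501, 1576, 2813 and 1371 at its brightest probe (NM_015771, chr14:58308807-58308866). Both BIO values were below both control values, more so in replicate 2. The log2 ratios were -0.65 and -1.05, with a mean of -0.85 ± 0.129 (adjusted p = 0.00237). A second Lats2 probe (NM_153382, chr14:58341225-58341284) was dim, with 76.3, 58.0, 90.9 and 67.3. It too was lower with BIO on both arrays, with a log2 ratio of -0.38 ± 0.108 (adjusted p = 0.0394 over all probes). Lats1, the paralog of Lats2, gave a log2 ratio of 0.24 ± 0.125 and did not pass the test (adjusted p = 0.199).

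Amotl2, an angiomotin family protein of cell junctions that binds YAP1 and holds it in the cytoplasm, had signals of 1499, 1029, 1749 and 884 (NM_019764, chr9:102635025-102635084). The BIO values lay below both control values, and the difference was larger in replicate 2. The log2 ratios were -0.58 and -0.99, with a mean of -0.78 ± 0.130 (adjusted p = 0.00364). Its relatives Amot and Amotl1 gave -0.27 ± 0.115 (adjusted p = 0.124) and -0.07 ± 0.111 (0.715). Ajuba, a LIM domain protein that binds LATS kinases and limits their action, had signals of 2740, 2454, 2870 and 2211 (NM_010590, chr14:55186812-55186871). Both BIO values were below both control values, but the log2 ratio of -0.30 ± 0.110 did not pass the test (adjusted p = 0.0842). With processed signals alone, Lats2 (adjusted p = 0.0548) and Amotl2 (0.071) also missed it, at nearly the same ratios of -0.85 and -0.76. With the minimum fold change lowered to 1.5, 3 of the 10 genes met the cut-offs, namely Ctgf and Lats2 as lower and Ankrd1 as higher. They were then met by 5.94% of 29864 genes, 2.45% as higher and 3.5% as lower.

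**Figure D3:**
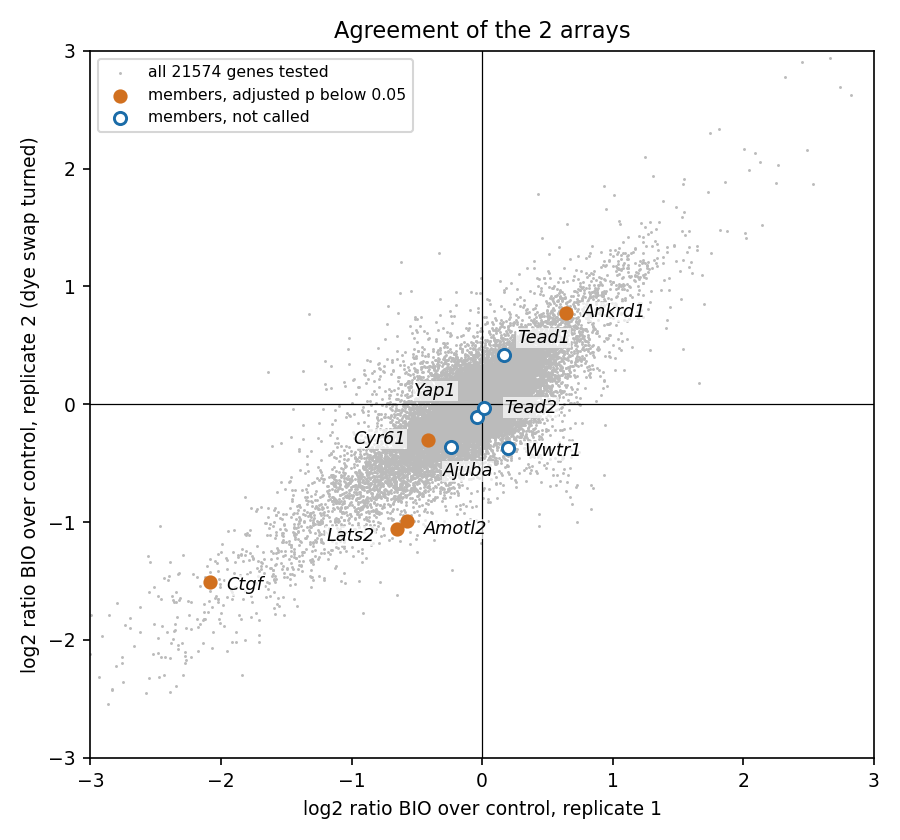
Log2 ratio of BIO over control in replicate 1 (x axis) and in replicate 2 with the dye swap turned (y axis), for all 21574 genes tested (gray) and for the 10 members (filled, adjusted p below 0.05; open, not called). The plot leaves out 15 genes beyond 3 on either axis. The 5 called genes have the same sign on both arrays, although Ctgf (-2.08 and -1.51) differs between them as much as Wwtr1 (0.20 and -0.37), whose signs are opposite.

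Most of the remaining core of the pathway did not pass the test. Of 23 further genes for kinases, scaffolds, upstream regulators and TEAD cofactors, 0 rose and 2 fell, and 21 did not pass the test, with a median log2 ratio of -0.07. At an unadjusted p of 0.05 in the same limma fit, 0 rose and 5 fell, or 21.7% of the 23, against 36.7% of all genes tested. Tead4, another TEAD factor, was called as fallen, with signals of 51.0, 6.42, 48.7 and 10.6. Both BIO values were low, and only replicate 2 had a BIO channel well above background. The log2 ratio of Tead4 was -1.15 ± 0.118 (adjusted p = 0.000361), and its size is uncertain. Tead4 was admitted to the test through its control channels only, as was Vgll3, which is among the 5 falls by unadjusted p. Genes admitted this way lean toward a fall. The p of either gene is therefore not taken as support for a fall, although both counts of falls above include Tead4. For Tead4, the ratio of replicate 1 rests on a BIO channel not well above background, and the offset draws such dim ratios toward 0. With processed signals below 15 set to 15, BIO was 0.294 and 0.308 of the control. Both BIO signals lay below 15, so that floor and the control signals alone set these ratios. Wwc2, a relative of KIBRA that promotes LATS activity, had signals of 4641, 2800, 5096 and 3424. The groups were well separated, with a log2 ratio of -0.67 ± 0.111 (adjusted p = 0.00362). Tead3, the last TEAD paralog, gave -0.28 ± 0.123 and did not pass the test (adjusted p = 0.141). Of the 4 Tead genes, 1 was thus called as fallen, with the limit given for Tead4, and the 3 not called had ratios from -0.28 to 0.29.

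Of 16 further genes listed as YAP1 and TEAD targets in other cells, 5 fell, 1 rose and 10 did not pass the test, with a median log2 ratio of -0.21. Igfbp3, which binds insulin-like growth factors, had signals of 7536, 1586, 8748 and 2070. Both BIO values were far below the controls, and the log2 ratio was -2.19 ± 0.112 (adjusted p = 2.79e-05), larger in size than that of Ctgf. The other genes that fell were F3, the cell surface trigger of blood clotting (-0.66 ± 0.147), Crim1, a membrane protein that binds BMPs (-0.57 ± 0.123), Axl, a receptor tyrosine kinase (-0.56 ± 0.115), and Dock5, an activator of RAC (-0.50 ± 0.114). Their adjusted p lay between 0.00983 and 0.0156. Nt5e, the ectonucleotidase that makes adenosine at the cell surface, rose by 0.55 ± 0.108 (adjusted p = 0.00817), with signals of 80.1, 137, 86.2 and 149. As with the members, most of the called targets fell and 1 gene rose. Nt5e was dim, as was Crim1 among those that fell, with signals of 67.9, 35.6, 70.5 and 48.8. Falls also outnumbered rises among all genes tested, of which 14.9% fell and 9.27% rose. By unadjusted p in the limma fit, at the threshold used for the core genes, 1 of the 16 rose and 6 fell. These made up 43.8% of the list, against 36.7% of all genes tested.

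**Figure D4:**
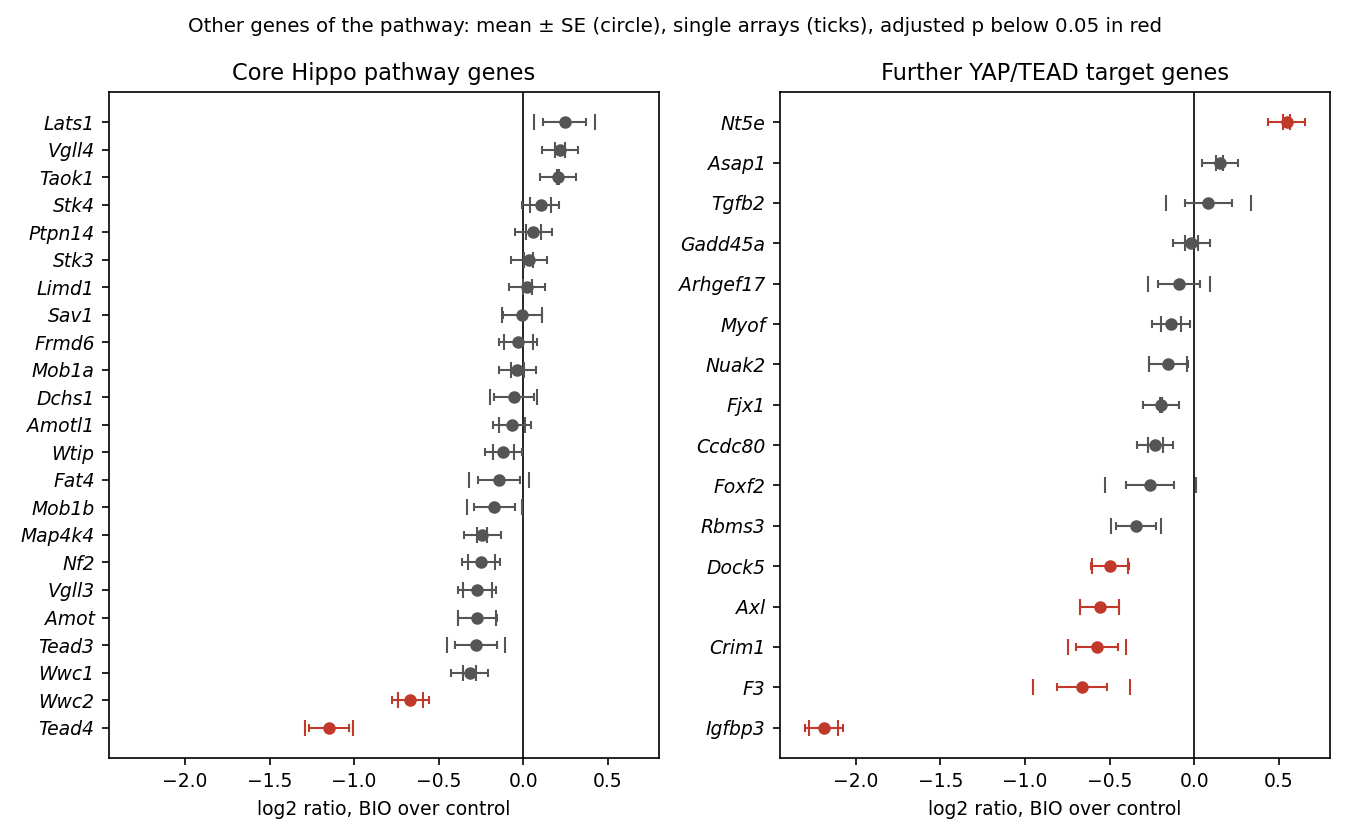
Log2 ratio of BIO over control (x axis) of 23 core Hippo genes and 16 further YAP1 and TEAD targets, as mean ± standard error of 2 arrays (circles) and single arrays (ticks), with genes of adjusted p below 0.05 in red. Most core genes lie near 0 apart from Wwc2 and Tead4, and among the targets Igfbp3 stands far to the left.

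Other groups of genes moved in the same cultures. The WNT targets Sp5, Axin2, Nkd1 and Lef1 all rose, by 2.80, 2.15, 1.32 and 1.07 on the log2 scale, and 6 of 6 cell cycle genes rose with a median of 1.03. All 8 endothelial markers fell, with a median of -2.07, and the sum of their signals was 28597 and 34430 in the controls and 5317 and 9919 with BIO. Mesenchymal markers fell in 7 of 10 cases (median -0.64), epithelial ones in 5 of 8 (-0.68), smooth muscle ones in 5 of 6 (-0.76) and macrophage ones in 2 of 4 (-0.38), none of them rising. Among all genes tested, 14.9% fell and 9.27% rose. Each marker was counted by its brightest probe. The summed signals were 356827 and 391472 in the controls and 230669 and 254066 with BIO for the mesenchymal list, and 83115 and 83968 against 47946 and 57267 for the epithelial list. They were 12499 and 13006 against 5392 and 5930 for smooth muscle, and 4687 and 5232 against 3441 and 4804 for macrophages. Every listed marker was detected and tested. Myh11 was admitted through its control channels only, which favors a fall, so its place among the 5 smooth muscle falls is not taken as support. RNA of mesenchymal, epithelial, endothelial and macrophage markers was thus represented. Smooth muscle genes were detected too, which does not show that muscle was present. The paper places smooth muscle differentiation at a later stage than these explants, and Myocd was dim (40.6, 37.5, 44.5 and 48.3). Fewer cells of a type and less RNA per cell cannot be told apart in RNA of whole explants, and the part of the loss of endothelial or other markers in the fall of Ctgf, Lats2, Amotl2, Cyr61 and Igfbp3 was not tested. The reference genes Gapdh and Ppia gave ratios of 0.27 and -0.16 and did not pass the test, Gapdh only after adjustment.

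**Figure D5:**
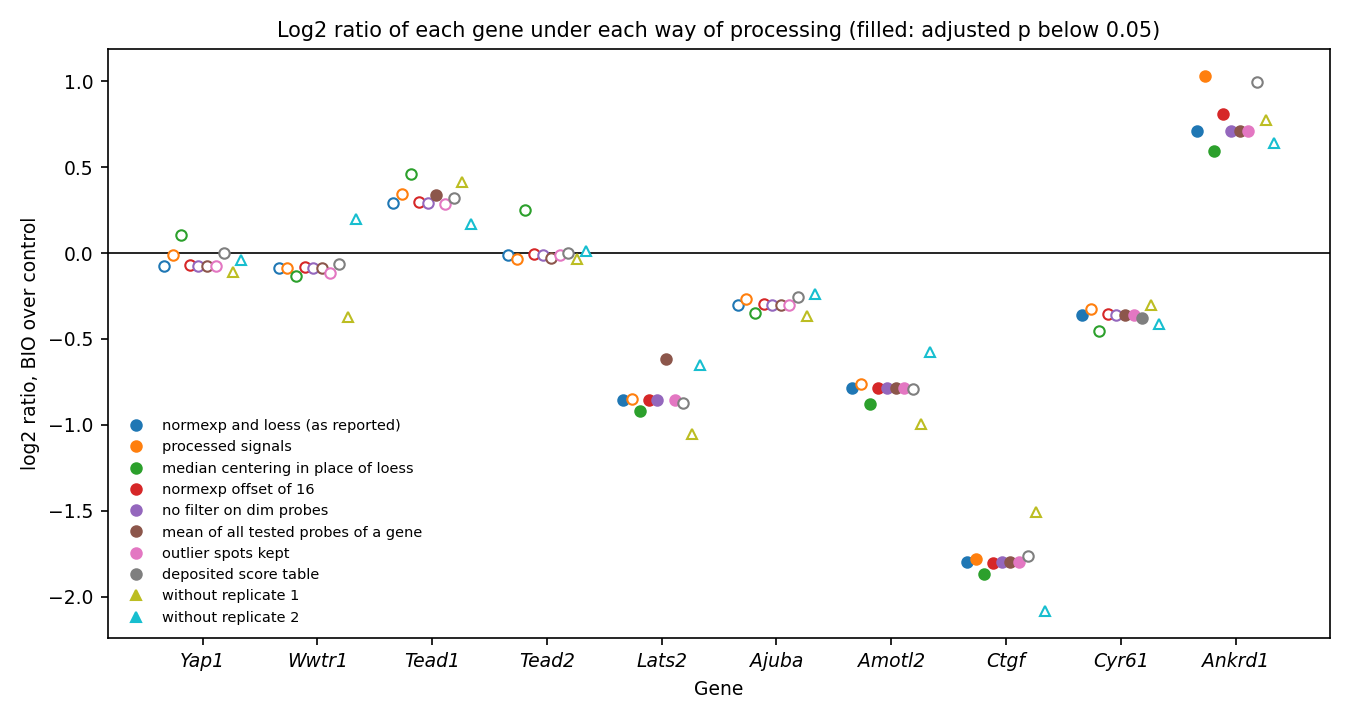
Log2 ratio of BIO over control (y axis) of the 10 genes under the reported processing and under 9 other settings, filled where the adjusted p was below 0.05 (triangles, single arrays, which allow no test). Ctgf, Lats2, Amotl2, Cyr61 and Ajuba lie below 0 in every setting plotted, and Ankrd1 and Tead1 lie above 0.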

How the data were processed

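Total RNA of 2 pairs of pools was labeled with AlexaFluor555 (green) or AlexaFluor647 (red) and hybridized to Agilent 2-color arrays. Per the file headers, the authors quantified each array with Agilent Feature Extraction 10.7.3.1, and every biological probe was spotted 4 times. The deposited mean and background intensities are raw, while the deposited processed intensities were background-subtracted and dye-normalized by that software. The authors also deposited a rounded score per probe and array, of unstated making. Set against the processed signals it behaves as a fold change, BIO against control, with a negative sign where control was higher (r = 0.988 and 0.984 on the log2 scale), and its centering is unknown.

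Mean intensities were background-corrected in limma 3.58.1 (R 4.3.3) by normexp with an offset of 50, and normalized within each array by loess. Control spots and outliers (3.49% and 3.16% of spots) were left out, and the other spots averaged per probe. A probe was tested if more than a share of 0.5 of its spots was well above background in the same condition on both arrays. The ratio of replicate 2 was turned, and lmFit and eBayes tested both ratios against 0, two-sided. The fit was first checked on simulated data with the same noise for every gene, which need not hold for real genes. Each gene was represented by its brightest tested probe, with Benjamini-Hochberg adjustment over 21574 genes at 0.05, and further probes over all 28824 probes. For the cut-offs on intensity, processed signals below 15 were set to 15 and each array was centered at its median log2 ratio. Probe coordinates are those of the files (mm9), and their place in exons was not analysed here. Names and promoters are from RefSeq (GRCm38.p6). Members and lists were chosen with earlier results of these data known. All 10 genes are named with every probe, and of other lists up to 5 called genes in each direction and paralogs. With 2 arrays, the median standard error was 0.111. Adjustment over probes was an alternative chosen after seeing the data.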

Additional observations from a re-analysis of the deposited data

How the results depend on the processing

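Every test was paired, because each array pairs a BIO pool with a control pool and the ratios within arrays were tested against 0. Of 4 fallen genes, 1 was called with processed signals (Ctgf) and 1 with the score table (Cyr61, whose rounded scores were equal on both arrays). From the scores, 0 of the 10 genes rose, and Ctgf (adjusted p = 0.159), Lats2 (0.196), Amotl2 (0.227) and Ankrd1 (0.0802) missed the test at ratios of -1.76, -0.87, -0.79 and 1.00. With the mean of all tested probes 2 genes rose, Ankrd1 and Tead1. The median of the 10 genes lay between -0.33 and -0.14 on single arrays, which allow no test, and between 1 and 3 genes passed the 2-fold rule there. With a minimum of 1.5-fold on both arrays, 3 passed. Median centering in place of loess turned Yap1 to 0.1028 and Tead2 to 0.2484. Of the core Hippo genes, 1 fell with processed signals and 2 rose with the score table. Of the further targets, 1 fell with processed signals and 2 with the score table, and 0 rose with median centering. Over all genes, 5223 were called as reported, 2011 when the processed signals were used, 2823 under median centering and 3248 from the score table, of which 1929 had risen. The causes were not tested. Of 80 ratios of the 10 genes in settings with a test, 65 kept their direction and side of the threshold, 10 no longer passed, 1 newly passed, 2 turned (above) and 2 were 0 (Yap1 and Tead2 in the score table). Of 20 ratios from single arrays, 2 had the other sign, Wwtr1 and Tead2 without replicate 2 (0.20 and 0.01). P adjusted over probes changed no call of the 10 genes. Ctgf was called in every tested setting but the score table, and Ankrd1 likewise.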
